A study of Drosophila melanogaster and Drosophila simulans and Drosophila erecta with 10 samples.

Results

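The sperm tail genes described here are 10 genes of Drosophila melanogaster that build the flagellum of the sperm. They were taken by FlyBase symbol as dj, djl, Mst87F, Mst84Da, Mst84Db, Mst84Dc, Mst84Dd, Mst98Ca, Mst98Cb and betaTub85D, and all 10 were among the 7326 genes listed for this species. RNA-seq was done on testes from adult flies 3 to 5 days old, kept at 25 °C, with 2 libraries of a control genotype and 2 of a miR-983 knockout (labelled miR-983KO, genotype miR-983 mutant). miR-983 is a microRNA gene of evolutionarily young origin in Drosophila, and the study asked what its loss does to gene expression in the testis. Libraries of the same genotype are biological replicates, per the design text. The sources used here do not give the allele, the stocks behind the controls or the number of flies per library. D. simulans was measured in the same way, but its identifiers could not be paired with gene symbols, so values from that species are not used here.

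The fly sperm tail is a very long flagellum that consists of an axoneme of microtubules alongside a pair of mitochondrial derivatives and dense accessory material. The transcripts for many of its proteins are made early, in primary spermatocytes, before the meiotic divisions. They are then stored and translated only days later, when the round spermatids elongate, so the amount of messenger RNA in a testis reports on transcription and storage and not on the amount of tail protein.

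The members fall into 3 kinds. betaTub85D encodes the testis-specific beta-tubulin that is used for the meiotic spindles and for the axoneme. dj (don juan) encodes a basic protein that is found along the mitochondrial derivatives of the flagellum, and djl (don juan-like) encodes its relative. The other 7 genes, Mst87F, the 4 Mst84D genes and the Mst98C pair, encode male-specific proteins rich in cysteine, glycine and proline, in which the motif Cys-Gly-Pro recurs. On the chromosome (order from assembly Release 6 plus ISO1 MT) dj and djl are direct neighbours, as are Mst98Ca and Mst98Cb, and the Mst84D genes follow one another as Mst84Dd, Mst84Dc, Mst84Db and Mst84Da. Only Mst87F and betaTub85D stand away from any other member.

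The testis identity of the libraries could be checked in part. All 9 spermatocyte genes of a marker list (among them aly, can and CycB) were listed. The count passing there was 0 (limma), and 2 had an unadjusted p under 0.05. Their log2 fold changes ran from -0.19 to 0.45, and the lowest adjusted p was 0.0537 (limma). The mutant libraries lay on one side of both controls in 6 of the 9, against 42.3% of all genes. Of the early germline markers 2 of 6 were listed (aub and bgcn, but not vas, nos, bam or stg), and of the somatic testis markers 2 of 6 (MtnA and upd1, but not the cyst cell marker tj), with 0 passing in either list. In the somatic list MtnA had the lowest p (log2 fold change 0.35 ± 0.07, SE; limma adjusted p = 0.0661). Markers of other tissues were present as well: 4 of 8 muscle genes, with 0 passing, 4 of 9 fat body genes and 0 of 4 ejaculatory bulb genes. Of 14 accessory gland symbols, among which Acp70A and SP name the same gene, 1 was listed (Acp95EF). The mean log2 value of the fat body markers was 6.53 in both controls and 6.78 and 7.01 in the mutants. NLaz and Tsf1 of that list rose in the mutant (limma adjusted p = 0.00771 and 0.0103) while Obp99a and Obp44a did not pass. The authors' deposited mark for a DESeq2 p under 0.05 is carried by 1 of the 2 listed somatic testis markers. It is also carried by 2 of the 4 listed fat body markers, by 0 genes of the other lists and by 1.65% of all genes. Acp95EF stood at 6.34 in mutant replicate 2 and between 4.12 and 4.42 in the other libraries, and the part of these markers in the results below was not tested. The knockout itself could not be checked, because 0 entries stand under a miR-983 symbol. Read totals do not accompany the log2 values, so the sequencing depth is unknown.

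The sperm tail genes were among the highest entries of the table in both genotypes. The values below are the log2 expression values the authors deposited, and any scaling by transcript length is left unnamed by the sources used here, so an order between genes describes the listed values and not numbers of transcripts. The lowest member value in any library was 7.95 (djl) and the highest 10.12 (Mst84Dc), whereas the table as a whole starts at 1.00. By the mean of the 4 libraries the members ranked between 17 (Mst84Dc) and 111 (djl) of 7326, which places all of them in the top 1.52% of entries, and 8 of the 10 were within the top 50.

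**Figure D1:**
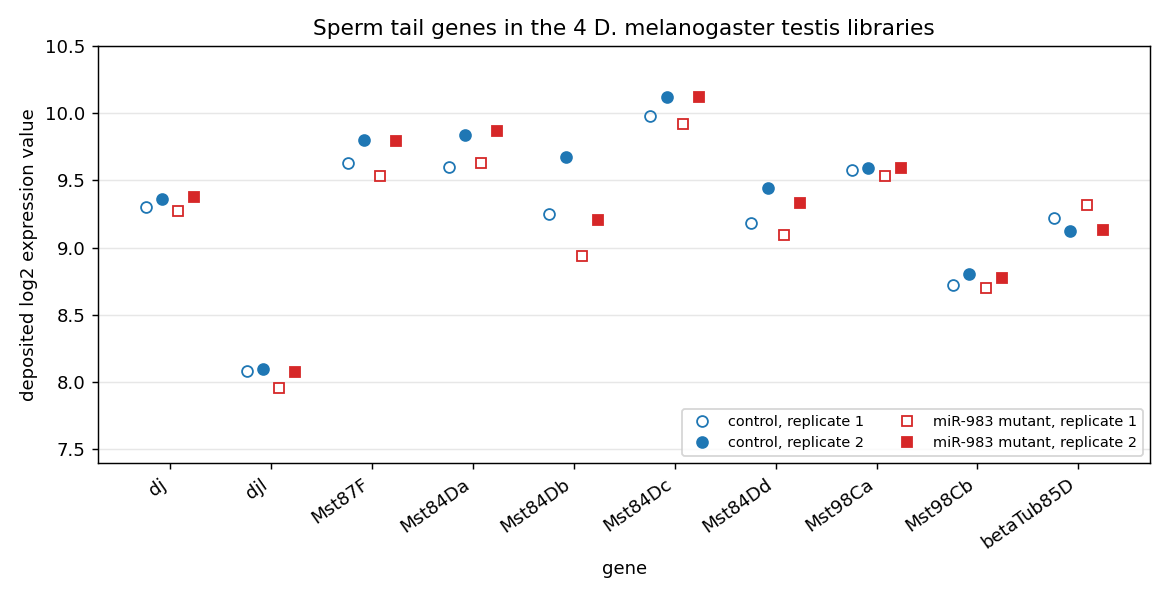
Deposited log2 expression value (y axis) of each sperm tail gene (x axis) in the 4 D. melanogaster testis libraries; circles are control and squares are miR-983 mutant libraries, open for replicate 1 and filled for replicate 2, with 1 point per library. Control and mutant points overlap for 8 of the 10 genes, and the clearest separation is at Mst84Db.

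None of the 10 genes passed the test between mutant and control (0 genes; limma, Benjamini-Hochberg adjusted p under 0.05 over all 7326 genes), against 2.28% of all genes. At an unadjusted p under 0.05 the count was 1 gene, Mst84Db, and 12.7% of all genes reached that level. The mark for a DESeq2 p under 0.05 in the authors' deposited table is carried by 0 of the 10 members and by 1.65% of all genes. The mutant libraries lay on one side of both controls in 2 members, djl and Mst84Db, both lower in the mutant; this held for 42.3% of all genes in either direction and for 24.3% with the mutant lower. The median log2 fold change (mutant minus control) was -0.03 over the 10 members and -0.01 over all genes, and the median absolute log2 fold change was 0.04 and 0.07. Whole testes were sequenced, so fewer late germ cells and less RNA per cell cannot be told apart in any of these values.

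betaTub85D, the tubulin of the axoneme, had log2 values of 9.22 and 9.12 in the controls and of 9.32 and 9.13 in the mutants. The highest and the lowest library were thus a mutant and a control, with the others between them. Its fold change was 0.06 ± 0.09 on the log2 scale (SE; limma adjusted p = 0.88), with a 95% interval from -0.15 to 0.27.

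dj stood at 9.30 and 9.37 in the controls and at 9.27 and 9.38 in the mutants. The controls lay within the range of the mutants, and the log2 fold change was -0.01 ± 0.08 (SE; limma adjusted p = 0.983). Its neighbour djl was listed at 8.08 and 8.10 in the controls and at 7.95 and 8.07 in the mutants. Both mutant libraries were below both controls, but mutant replicate 2 was so by less than the mutants differed from each other. The log2 fold change of djl was -0.08 ± 0.07 (SE; limma adjusted p = 0.764; 95% interval from -0.24 to 0.09).

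Of the Cys-Gly-Pro genes, Mst87F had log2 values of 9.63 and 9.80 in the controls and of 9.53 and 9.79 in the mutants. Each genotype had a lower and a higher library, and the groups overlapped (log2 fold change -0.05 ± 0.11, SE; limma adjusted p = 0.922). Mst98Ca was the steadiest member, at 9.58 and 9.59 in the controls and at 9.54 and 9.59 in the mutants. Its partner Mst98Cb stood at 8.73 and 8.80 in the controls and at 8.70 and 8.77 in the mutants. The groups overlapped in both genes, and the log2 fold changes were -0.02 ± 0.08 (SE; limma adjusted p = 0.959) and -0.03 ± 0.07 (0.94).

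Within the Mst84D cluster, Mst84Db had the largest difference between genotypes, and it did not pass the test. Mst84Db had log2 values of 9.25 and 9.67 in the controls and of 8.94 and 9.21 in the mutants, so both mutant libraries lay below both controls. The log2 fold change was -0.39 ± 0.15 (SE), which is 23.7% lower on the linear scale, with an unadjusted limma p of 0.0311 and an adjusted p of 0.317. The 95% interval ran from -0.73 to -0.05 without adjustment for the number of genes. The value turned on single libraries: without control replicate 1, the lower control, the log2 fold change was -0.60 and the adjusted p 0.0193 (limma; 4.15% of all genes passed in that fit), and without control replicate 2 it was -0.18 and the adjusted p 0.949. It was -0.26 without mutant replicate 1, with an adjusted p of 0.577, and -0.52 without mutant replicate 2, with an adjusted p of 0.19.

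The 3 other genes of the cluster overlapped between genotypes. Mst84Da stood at 9.60 and 9.84 in the controls and at 9.63 and 9.87 in the mutants (log2 fold change 0.03 ± 0.12, SE; limma adjusted p = 0.959). Mst84Dc, the highest member, stood at 9.98 and 10.12 in the controls and at 9.92 and 10.12 in the mutants (-0.03 ± 0.10; adjusted p = 0.948). Mst84Dd stood at 9.18 and 9.44 in the controls and at 9.09 and 9.33 in the mutants (-0.10 ± 0.12; adjusted p = 0.819). In each of these genes the 2 libraries of a genotype differed by more than the genotype means did.

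Since the 4 genes moved together between libraries, Mst84Db was also set against the mean of the 3 others in the same library, a comparison chosen after the values were seen. This log2 difference was -0.34 and -0.13 in the control libraries, against -0.61 and -0.57 in the mutant libraries. Both mutant libraries were lower than both controls, with a mean of -0.59 against -0.23. An exact permutation test of 2 against 2 libraries, two-sided, gave p = 0.333, which is the smallest p that this design allows. The mean of the 3 others differed by -0.03 between the genotypes. The sources used here do not say how reads that map to several places were handled, so values of these related genes may share reads.

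**Figure D2:**
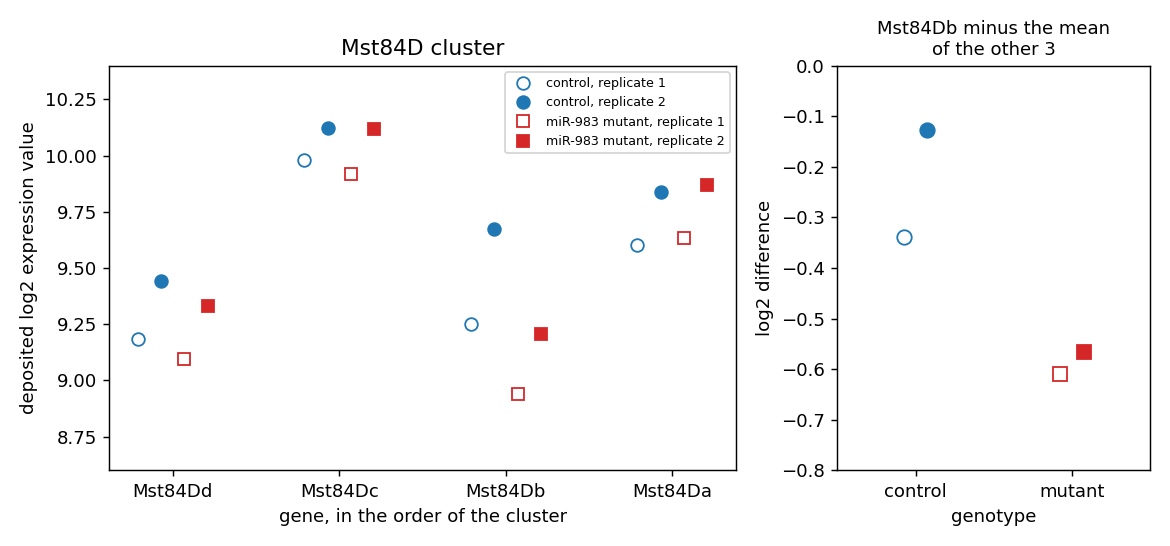
Left, deposited log2 expression values (y axis) of the 4 Mst84D genes in their order along the chromosome (x axis), with circles for control and squares for mutant libraries, open for replicate 1 and filled for replicate 2. Right, log2 value of Mst84Db minus the mean of the 3 other genes in the same library (y axis) by genotype; the controls sit at -0.34 and -0.13 and the mutants at -0.61 and -0.57.

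The precision of the libraries limits what these comparisons can show. For the 9 members other than Mst84Db the log2 fold changes lay between -0.10 (Mst84Dd) and 0.06 (betaTub85D), with adjusted p between 0.764 and 0.983. Each of their 95% intervals held 0, and the widest bounds were -0.37 and 0.30, equal to 22.5% lower and 23.3% higher on the linear scale. For all 10 members the interval ended short of a 2-fold difference in either direction. The sign of several small values depended on the scaling, as dj, Mst84Dc, Mst98Ca and Mst98Cb each turned slightly positive after quantile normalization.

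**Figure D3:**
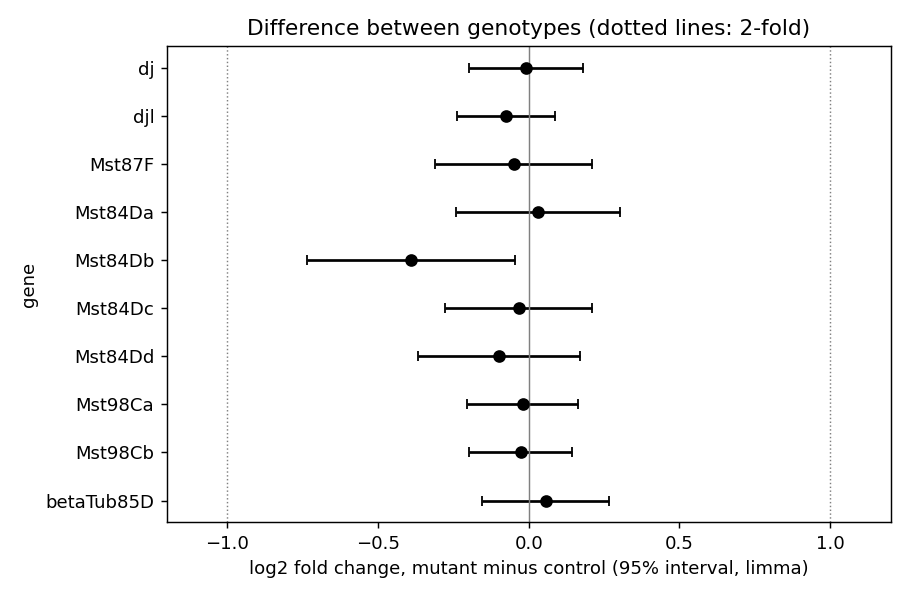
Log2 fold change between mutant and control (x axis, mutant minus control) for each sperm tail gene (y axis); points are limma estimates from 2 libraries per genotype and bars are 95% intervals without adjustment for the number of genes. The interval of Mst84Db, from -0.73 to -0.05, is the 1 interval that does not hold 0, and no interval reaches the dotted lines at a 2-fold difference.

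No other gene with so high a level passed either. Of 114 genes with a mean log2 value of at least 8, members included, 0 passed the adjusted test (limma, 0%), 8 had an unadjusted p under 0.05 (7.02%) and 2 carry the DESeq2 mark of the authors' deposited table (1.75%). The members are 10 of these 114 genes.

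A second pattern ran between the libraries of the same genotype. In 9 of the 10 members the library labelled replicate 2 was higher than replicate 1 among the controls and also among the mutants, and in betaTub85D it was lower in both genotypes. Over all genes 31.7% were higher in replicate 2 in both genotypes, but of the 78 other genes with a mean log2 value of at least 8 and a length of up to 2000 bp it was 63 (80.8%), so the members resemble other genes of like level and length. The median absolute difference between replicates was 0.12 (controls) and 0.19 (mutants) on the log2 scale for the members, and 0.08 and 0.10 for all genes. In 7 of the 10 members the replicates differed by more than the genotype means did in both genotypes, the exceptions being djl, Mst84Db and Mst98Ca.

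The differences between replicates tended to follow the annotated length of the gene. The 5 members up to 900 bp long (the Mst84D genes, from 413 to 468 bp, and Mst87F, of 858 bp) were higher in replicate 2 by 0.14 to 0.42 in the controls and by 0.20 to 0.27 in the mutants. The 5 longer members (1066 to 1900 bp) differed by -0.09 to 0.08 and by -0.19 to 0.12. betaTub85D, the longest at 1900 bp, was the 1 member that was lower in replicate 2. A like trend was present among the genes that are not members, but not at every step. Their median difference between replicates was 0.07 in the controls and 0.09 in the mutants for 266 genes up to 500 bp long. For 509 genes of 500 to 700 bp it was 0.09 in both genotypes, and for 1490 genes over 4000 bp long -0.07 and -0.05. Among genes with a mean log2 value of at least 8 it was 0.16 and 0.20 for the 6 other genes up to 500 bp, and -0.06 and 0.01 for 17 genes of 2000 to 4000 bp. Short length and high level thus went together with the replicate difference, and their part in it was not tested.

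**Figure D4:**
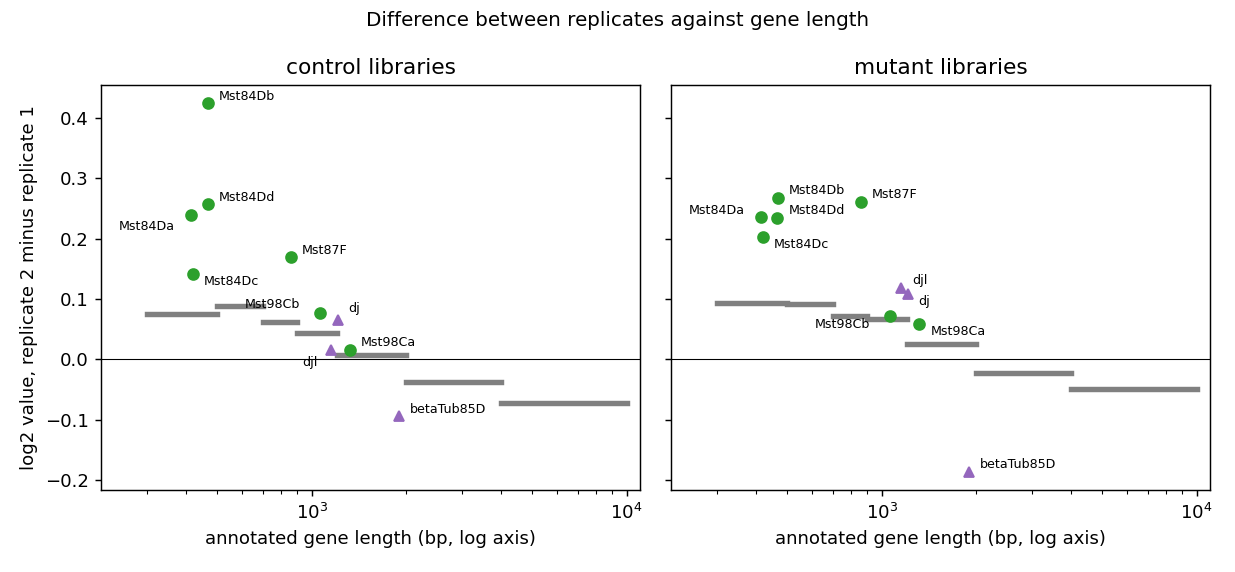
Difference in log2 value between replicate 2 and replicate 1 (y axis) against annotated gene length in bp (x axis, logarithmic) in control libraries (left) and mutant libraries (right). Green circles are the Cys-Gly-Pro genes, purple triangles are dj, djl and betaTub85D, and grey bars are the medians of all genes that are not members, by length class (the outer bars are drawn from 300 and to 10000 bp but take in all shorter and longer genes); the short Mst84D genes lie above 0 and betaTub85D lies below 0 on both sides.

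Overlap between annotated genes touches a pair of the members. Mst84Da lies for 324 bp within the span of MstProx, and Mst87F shares 41 bp with lncRNA:CR43300. MstProx was listed at 6.18 and 6.44 in the controls and at 6.22 and 6.44 in the mutants. It was thus higher in replicate 2 in both genotypes, as was Mst84Da. Its annotated length of 3367 bp falls in a class with median differences of -0.04 and -0.02. In that class 18.2% of genes that are not members were higher in replicate 2 in both genotypes. The use of strand in counting is not named by the sources used here. The values of Mst84Da and MstProx may share reads, which was not tested. Of 10 genes that flank or overlap a member, 6 were listed, and 0 passed the test (limma; 0 with an unadjusted p under 0.05), with log2 fold changes from -0.14 to 0.02.

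No member was a predicted target of miR-983. The authors' deposited table holds TargetScan predictions for both arms of the microRNA and PITA predictions for the 5p arm, and 0 of the 10 members carry any of these marks. Over all genes in the authors' deposited table the marked shares are 5.36% (TargetScan, 5p arm), 4.78% (TargetScan, 3p arm) and 4.01% (PITA, 5p arm), so few marks among 10 genes are usual.

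Genes related to the sperm tail or to spermatid development were also measured, in lists chosen with earlier results of these data known. Of 66 symbols in 5 lists, a few of them names of the same gene, 46 were listed. None passed the test in either direction (0 genes, limma), against 2.28% of all genes. An unadjusted p under 0.05 was found for 5 genes, and 12.7% of all genes reached that level. The DESeq2 mark of the authors' deposited table is carried by 0 of them and by 1.65% of all genes. In the tubulin list 4 of 9 genes were present. alphaTub85E, an alpha-tubulin of somatic testis cells and muscle, stood at 4.77 and 4.72 in the controls and at 4.92 and 5.08 in the mutants (log2 fold change 0.26 ± 0.07, SE; limma adjusted p = 0.15). Its mutant libraries were both above both controls, and in 42.3% of all genes they lay on one side of them. The general alpha-tubulins alphaTub84B and alphaTub84D and the centrosomal gammaTub23C had log2 fold changes of 0.04, -0.01 and -0.07.

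Among the genes of the axoneme and its assembly 13 of 24 were listed, with 0 calls (limma; 1 gene with an unadjusted p under 0.05). That gene was Tektin-A, a filament protein of the axonemal microtubules, at 5.83 and 5.75 in the controls and at 5.98 and 6.01 in the mutants (0.20 ± 0.06, SE; limma adjusted p = 0.17). Bug22, needed for tubulin modification in the axoneme, had a log2 fold change of -0.15 ± 0.07, tilB, a dynein assembly factor, of 0.10 ± 0.08 and hmw of 0.06 ± 0.06. Of the genes that shape the spermatid mitochondria 10 of 11 were listed, with 0 calls and 0 genes with an unadjusted p under 0.05. The lowest p-values there belonged to park and Pink1, the mitochondrial quality control pair, with log2 fold changes of -0.15 ± 0.07 and -0.12 ± 0.07, the membrane protease rho-7 at -0.09 ± 0.07 and the fission factor Drp1 at -0.06 ± 0.06.

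Regulators of translation in male germ cells, not all of which are known to act on spermatid messages, had 11 of 12 genes listed. There were 0 calls (limma, 1 gene with an unadjusted p under 0.05). eIF4E3, a testis form of the cap-binding initiation factor, stood at 7.02 and 7.03 in the controls and at 6.81 and 6.92 in the mutants (-0.16 ± 0.06, SE; limma adjusted p = 0.348). Both mutant libraries were below both controls, as in 24.3% of all genes. Rbp4, fest and orb had log2 fold changes of -0.17 ± 0.08, -0.11 ± 0.09 and 0.11 ± 0.12.

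The last list held 10 symbols of further Mst genes and protamines, with 8 genes listed and 0 calls (limma, 2 genes with an unadjusted p under 0.05). Its symbols Mst35Ba and Mst35Bb are other names of ProtA and ProtB, which were listed, so no gene of this list was missing. Mst36Fb stood at 6.12 and 6.08 in the controls and at 5.90 and 5.88 in the mutants (-0.21 ± 0.06, SE; limma adjusted p = 0.139). ProtB, a protamine of the sperm nucleus, stood at 6.66 and 6.82 in the controls and at 6.93 and 7.05 in the mutants (0.25 ± 0.08; adjusted p = 0.182). The genotypes did not overlap in either gene, as in 42.3% of all genes, and the directions were opposite. Mst33A and the sperm chromatin gene Mst77F had log2 fold changes of 0.12 ± 0.06 and 0.08 ± 0.08.

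The genes whose profile came closest to that of the members were found by centring each gene on its own mean over the 4 libraries and taking the Euclidean distance to the mean centred profile of the 10 members. That profile was -0.03 and 0.10 in the control libraries, against -0.10 and 0.04 in the mutant libraries, so it was higher in replicate 2 in both genotypes. Mst84Db weighs heavily in its genotype difference, with a log2 fold change of -0.39 against -0.10 to 0.06 for the 9 others. The nearest gene, FBgn0250840, for which no symbol was found, lay at a distance of 0.0086, CG17376 at 0.0108 and CG31740 at 0.0146 on the log2 scale. Close profiles over only 4 libraries are easily found among 7326 genes, so nearness does not show a tie to the sperm tail. CG17376 and CG31740 are 949 and 742 bp long and of high level, like most members. CG31740 had log2 values of 10.51 and 10.66 in the controls and of 10.45 and 10.59 in the mutants. CG17376 had values of 9.84 and 9.99 in the controls and of 9.78 and 9.91 in the mutants.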

How the data were processed

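RNA-seq values came from 4 D. melanogaster testis libraries, 2 control and 2 miR-983 mutant. The authors deposited a gene table of log2 expression values with a column for each library. The sources used here do not give the unit behind the log2 values or how libraries were scaled. The submitters' processing notes name TopHat, which aligns reads across splice junctions, and no version. The lowest value in any library is 1.00, so genes with a lower value in even 1 library, whether low or silent, are not in the table. A marker that was not listed may thus be low and not silent. Target marks (TargetScan, PITA) and the marks for p under 0.05 by DESeq2 were made by the authors, per the file headers. No column was left unmapped (0 columns).

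All 7326 genes were fitted with limma 3.58.1 in R 4.3.3 (empirical Bayes trend, two-sided, no replicate block), and p-values adjusted after Benjamini and Hochberg were called under 0.05. The fit was tested on simulated data. Single values were tested with an exact permutation test (SciPy 1.17.1, Python 3.11.15). Symbols matched 7195 identifiers. Gene lengths, available for 7181 genes and all 10 members, and gene order came from assembly Release 6 plus ISO1 MT. Coordinates are not printed, since the sources used here do not name the authors' build.

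The members and gene lists were chosen with earlier results of these data known. Named genes are every member, the 4 genes of each list with the smallest p, the 3 nearest profiles, and, chosen after their values were seen, MstProx and the cell type markers. Alternatives were other scalings, priors, filters, a pseudocount of 1, a replicate block and leaving out each library; cyclic loess and removal of the gene length trend were chosen after seeing the data.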

Additional observations from a re-analysis of the deposited data

How the results depend on the processing

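Of the 10 sperm tail genes 0 passed in 10 of the 12 alternatives, and Mst84Db alone passed, lower in the mutant, in the others. The labels do not say that replicate numbers mark a shared batch. Across all genes the differences between replicate 2 and replicate 1 in the 2 genotypes correlated at 0.147. Among the 10 members, 9 were higher in replicate 2 in both genotypes and 1 was lower in both. With a replicate block 503 genes passed (213 higher, 290 lower; 6.87%) in place of 167. In that fit 1 sperm tail gene passed (Mst84Db, adjusted p = 0.0015, limma), 1 tubulin (alphaTub85E), 1 axoneme gene (Tektin-A) and 2 other Mst genes (Mst36Fb and ProtB), all in the direction given above. With the gene length trend removed 254 genes passed, and the adjusted p of Mst84Db was 0.0775 (limma). When single libraries were left out, which assumes that the lone library of a genotype varies like the other group, the count over all genes ranged from 118 to 304 (304 without control replicate 1 and 259 without control replicate 2) and that over sperm tail genes from 0 to 1.

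Small fold changes changed sign, each below the threshold, and the cause was not tested. On the log2 scale dj was at 0.0037 after median ratio scaling, 0.026 after quantile normalization, 0.024 after cyclic loess and 0.0046 with the length trend removed. After quantile normalization Mst84Dc was at 0.042, Mst98Ca at 0.041, Mst98Cb at 0.0081 and alphaTub84D at 0.0030, and after cyclic loess the same genes were at 0.0017, 0.013, 0.0039 and 0.0063. With the length trend removed alphaTub84D was at 0.0045. With single libraries left out dj ranged from -0.063 to 0.045, Mst87F from -0.18 to 0.081, Mst84Da from -0.089 to 0.15, Mst84Dc from -0.13 to 0.068, Mst84Dd from -0.23 to 0.029, Mst98Ca from -0.049 to 0.0085, Mst98Cb from -0.064 to 0.012, betaTub85D from -0.037 to 0.15, alphaTub84D from -0.048 to 0.021 and orb from -0.034 to 0.26. Mst84Db kept its sign throughout, from -0.60 to -0.18.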
